A study of Mus musculus with 8 samples.

Results

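The genes of the oligodendrocyte precursor and astrocyte lineages were described across the cortices of Nuak1 KO and WT mouse embryos. They were the 10 rows of the count table whose symbol is Olig1, Olig2, Sox10, Pdgfra, Cspg4, Nkx2-2, Gfap, Aldh1l1, Aqp4 or Aldoc, out of 21165 rows in all. Of these, 6 genes belong to oligodendrocyte precursor cells (OPCs) and 4 to astrocytes. The study asked which transcripts change in the cortex when the kinase NUAK1 is lost. Poly-A RNA was sequenced from the cortices of 4 KO and 4 WT embryos at E18.5, and no treatment was given. The KO embryos carried a constitutive deletion of Nuak1 in every cell, so that neurons, glia, vessels and meninges all lacked it, and such animals die at birth. By the labels 2 of the KO embryos and 1 of the WT embryos were male, and the labels name 3 litters, where the series description speaks of 4. Since a column is named by genotype and number alone, neither litter nor sex could be tied to a library, and libraries are named here as in WT library R4.

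At the end of gestation the cortex is turning from the birth of neurons to the birth of glia. Radial glia, the stem cells of the cortex, give rise to astrocytes, while OPCs reach the cortex from ventral and then dorsal sources and divide under platelet-derived growth factor A, the ligand of the receptor encoded by Pdgfra. OPCs are set by the bHLH factors Olig1 and Olig2 and the HMG factor Sox10, and they carry Pdgfra and the proteoglycan NG2, encoded by Cspg4, on their surface. The homeodomain factor Nkx2-2 comes on as they begin to differentiate. Astrocytes are recognized by the folate enzyme Aldh1l1 and the glycolytic enzyme Aldoc, which radial glia also use, and later by the intermediate filament Gfap and the water channel Aqp4 of their endfeet.

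Entries of the RefSeq promoter table (GRCm38.p6, 250 bases before to 50 after a gene's start) were used for 7 of the 10 genes. This count does not show that the other genes lack an entry. The promoters of Gfap and Olig2 are shown because these members behaved differently across libraries, with Gfap far above its other libraries in WT library R4 and Olig2 close to its mean there. Capitals mark 3 motifs searched on both strands. The letters TATAAA stand for the TATA box. For the recognition core of NFI factors, which drive astrocyte genes, TTGGC was searched. For the STAT factors downstream of gliogenic cytokines it was TTCNNNGAA. No marked stretch overlapped another. The promoters lie at chr11:102897151-102897450 on the minus strand and chr16:91225300-91225599 on the plus strand of GRCm38.p6, each written 5′ to 3′.
Gfap: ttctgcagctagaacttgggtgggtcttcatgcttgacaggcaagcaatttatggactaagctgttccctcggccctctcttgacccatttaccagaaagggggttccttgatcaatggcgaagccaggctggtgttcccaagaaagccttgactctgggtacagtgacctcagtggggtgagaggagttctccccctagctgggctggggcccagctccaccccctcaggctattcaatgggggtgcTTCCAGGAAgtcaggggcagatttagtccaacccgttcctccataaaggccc
Olig2: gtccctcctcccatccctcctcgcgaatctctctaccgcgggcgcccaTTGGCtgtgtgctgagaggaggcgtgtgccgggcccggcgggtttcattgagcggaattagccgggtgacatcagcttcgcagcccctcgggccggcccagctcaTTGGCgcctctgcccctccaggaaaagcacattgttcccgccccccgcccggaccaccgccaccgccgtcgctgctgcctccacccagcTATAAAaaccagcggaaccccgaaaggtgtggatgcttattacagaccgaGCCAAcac
The Gfap promoter held 1 marked stretch, a STAT site, and the Olig2 promoter 4, a TATA box and NFI cores. Of the 32851 promoters in the table, 13.6% held the TATA box, 46.7% the NFI core and 8.30% the STAT site. These matches describe the letters of the window only, and nothing about binding was measured.

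Libraries held between 9643711 (WT library R4) and 27014858 counts (KO library R3), and values are given as normalized counts, that is, counts brought to 1 common effective library size, the mean of the 8. Nuak1 had 1204 ± 260 normalized counts in WT libraries and 14.2 ± 4.35 in KO libraries (SD, n = 4), with no overlap, so each column matched its genotype. The 8 markers of projection neurons, the main neurons of the cortex, were led by Tubb3 and Stmn2 and summed to between 58307 and 68477 normalized counts in every library. KO library R1 and WT library R4 stood apart in ways that touch the glial genes. In KO library R1 the 10 markers of meningeal fibroblasts, led by Col3a1 and Col1a2, summed to 10215 normalized counts, against 278.7 to 509 in the other libraries. Of those 10 markers, Lum, Slc6a13, Foxc1, Slc13a4 and Foxd1 had too few counts to be tested. Pericyte and smooth muscle markers were also highest in KO library R1, at 4287 against 2395 to 2782, as were microglial markers, at 1099 against 559 to 789, and endothelial markers, at 6204 against 4403 to 5093. In WT library R4, the shallowest of the 8, the highest level of most glial members was found.

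The genotypes overlapped for every one of the 10 genes, and none passed a test. Of the 10, 9 passed the filter on low counts and entered edgeR's quasi-likelihood test among 12699 genes. Over all those genes, 0.0709% had an adjusted p under 0.05 (9 genes), 7.69% an unadjusted p under 0.05, 4.25% an unadjusted p under 0.05 with an absolute log2 fold change over 0.25, the thresholds of the study, and 4.49% had KO and WT libraries that did not overlap. Among the 9 members the count was 0 by each of these criteria, and DESeq2 likewise called 0 of them at an adjusted p of 0.05. The smallest unadjusted p was 0.0781 (Aldoc) and the adjusted p lay between 0.708 and 0.989. The median log2 fold change of the 9 was 0.03, beside -0.01 over all genes tested. As whole cortices were sequenced, fewer cells of a type and less RNA per cell cannot be told apart in any of these values.

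**Figure D1:**
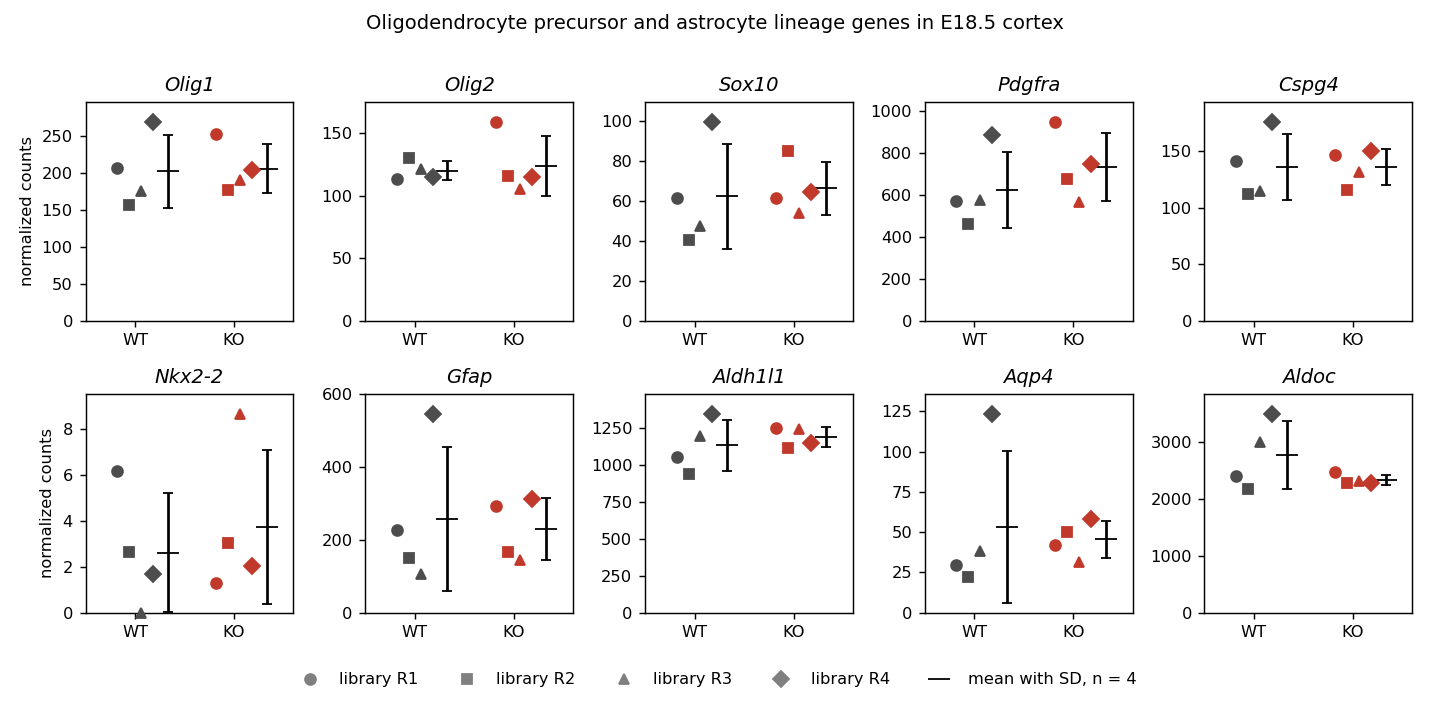
Normalized counts of the 10 genes by genotype, 1 symbol a library (grey WT, red KO, shape by library number) with the mean and SD of 4 libraries. The libraries of KO and WT overlap in each panel, and the WT R4 diamond is the highest of 8 for Olig1, Sox10, Cspg4, Gfap, Aldh1l1, Aqp4 and Aldoc.

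Olig2, the factor that sets the lineage, was the steadiest member in WT, with a coefficient of variation (CV) of 6.31%, and less so in KO, with 19.4%. It lies at chr16:91225795-91228922 (NCBIM37, plus strand), 41091 bases from Olig1 at chr16:91270014-91272184. Olig2 had 113, 129.7, 122 and 115 normalized counts in WT libraries R1 to R4 and 159, 116, 105 and 115 in KO libraries R1 to R4. KO library R1 was the highest of the 8 and KO library R3 the lowest, so the KO libraries enclosed all 4 WT ones. The means were 124 ± 24.0 in KO and 119.8 ± 7.55 in WT (SD, n = 4), which gave a log2 fold change of 0.03 ± 0.15 (standard error, edgeR adjusted p = 0.977). Without KO library R1 the sign turned, to -0.10.

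Olig1, its neighbour and paralog, had 207, 156, 176 and 269 normalized counts in WT and 252, 176, 190.0 and 204 in KO, in the order R1 to R4. The highest and the lowest library were both WT, R4 and R2. The log2 fold change was 0.04 (standard error 0.17, 95% interval -0.34 to 0.42, adjusted p = 0.975). Sox10, which acts with the Olig factors and is kept through myelination, lies at chr15:78985343-78994920 on the minus strand. It was measured at 61.7, 40.3, 47.6 and 99.7 normalized counts in WT and 61.5, 85.1, 53.8 and 64.8 in KO. Here too the WT libraries R4 and R2 were the extremes, 2.47-fold apart, and all 4 KO libraries fell between them. The means were 66.3 ± 13.4 in KO and 62.3 ± 26.4 in WT (SD, n = 4), and the log2 fold change was 0.11 (standard error 0.27, adjusted p = 0.955).

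Pdgfra, the receptor through which OPCs receive their mitogen, had the most normalized counts of the OPC genes, uncorrected for exon length, and the largest log2 fold change among them. It lies at chr5:75548316-75594229 on the plus strand. WT libraries R1 to R4 had 567, 461, 575 and 883 normalized counts and KO libraries R1 to R4 946, 672, 563 and 746. KO library R1 was the highest and WT library R4 the next, while KO library R3 fell among the lower WT libraries. The means were 732 ± 161 in KO and 622 ± 182 in WT (SD, n = 4), and the log2 fold change was 0.24 (standard error 0.20, 95% interval -0.19 to 0.68, adjusted p = 0.827). It moved with both libraries that stand apart, to 0.11 without KO library R1 and to 0.46 without WT library R4 (unadjusted p = 0.0135, adjusted p = 0.284), and was 0.32 with both left out (unadjusted p = 0.0219, adjusted p = 0.361). Pdgfra also marks meningeal fibroblasts, whose summed markers were highest in KO library R1, where Pdgfra was highest too, and their part in its level was not tested.

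Cspg4, the other surface marker, is shared with pericytes. It lies at chr9:56712911-56747677 on the plus strand and had 141, 112, 115 and 176 normalized counts in WT and 146, 116, 132 and 150 in KO, in the order R1 to R4. The means were 135.9 ± 29.5 in WT and 135.8 ± 15.6 in KO (SD, n = 4), and KO over WT stood at 0.02 on the log2 scale (standard error 0.16, adjusted p = 0.989). Pericyte markers summed highest in KO library R1, where Cspg4 was the third highest of the 8, and their part in its level was not tested.

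Nkx2-2 was close to undetected, with 30 reads in all 8 libraries together. The raw counts were 6, 3, 0 and 1 in WT libraries R1 to R4 and 1, 2, 14 and 3 in KO libraries R1 to R4, and a count of 0 allows for up to 3. It did not pass the filter, and the exact permutation test on normalized counts gave p = 0.571 (2-sided, smallest possible p = 0.0286). Exons of Nkx2-2 (chr2:147003282-147019979, minus strand) share 278 bases with the antisense gene Nkx2-2as, and since the strand setting of the counting is not given in the sources used here, reads of the pair cannot be told apart. Transcripts of mature oligodendrocytes were as scarce. Mobp had no count in any library, and Mog had 4 counts and Opalin 2 in all.

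Among the astrocyte genes, Gfap and Aqp4, the markers of more mature astrocytes, varied most between embryos. Gfap lies at chr11:102748650-102762226 on the minus strand. It had 228, 152, 106 and 546 normalized counts in WT and 293, 167, 145 and 312 in KO, in the order R1 to R4. WT library R4 was 5.16-fold above WT library R3, and the KO libraries lay between those extremes. The means were 258 ± 198 in WT and 229 ± 85.4 in KO (SD, n = 4), and the log2 fold change was -0.13 (standard error 0.44, 95% interval -1.10 to 0.84, adjusted p = 0.966).

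Aqp4, at chr18:15547903-15562193 on the minus strand, had 29.8, 21.9, 38.3 and 123 normalized counts in WT and 42.3, 50.2, 31.6 and 58.0 in KO. WT library R4 was 5.63-fold above WT library R2, the widest range of the 9 tested members. With WT library R4 the log2 fold change was -0.15 (standard error 0.48, 95% interval -1.20 to 0.89, adjusted p = 0.962). Without it the sign turned for both genes, to 0.62 for Aqp4 (unadjusted p = 0.0479, adjusted p = 0.396) and to 0.50 for Gfap (adjusted p = 0.519). The CV among WT libraries was 88.4% for Aqp4 and 77.0% for Gfap, beside a median of 10.2% over all genes tested.

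Aldh1l1 and Aldoc, the enzymes that astrocytes share with radial glia, were the most abundant members and varied little in KO, with a CV of 5.81% for Aldh1l1. Aldh1l1 had 1051, 941, 1193 and 1345 normalized counts in WT and 1252, 1113, 1241 and 1146 in KO, in the order R1 to R4. All 4 KO libraries again fell inside the WT range. With a log2 fold change of 0.08 and the smallest standard error of the members, 0.10 (95% interval -0.14 to 0.29, adjusted p = 0.902), Aldh1l1 set the closest bound on a difference. Its exons (chr6:90436421-90550197, plus strand) share 499 bases with the gene Gm15756 on the opposite strand.

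Aldoc, at chr11:78136470-78141283 on the plus strand, came closest to a difference. It had 2410, 2179, 3003 and 3500 normalized counts in WT and 2471, 2284, 2329 and 2283 in KO. WT libraries R3 and R4 were above every KO library, whereas WT library R2 was below them all. The means were 2342 ± 89.2 in KO and 2773 ± 596 in WT (SD, n = 4), and KO over WT was -0.24 on the log2 scale (standard error 0.12, 95% interval -0.51 to 0.03, unadjusted p = 0.0781, adjusted p = 0.708). The value ranged from -0.34 without WT library R2 (unadjusted p = 0.00869, adjusted p = 0.448) to -0.10 without WT library R4. Among KO libraries Aldoc varied by only 3.81%, less than the median gene (8.18%), and among WT libraries by 21.5%.

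**Figure D2:**
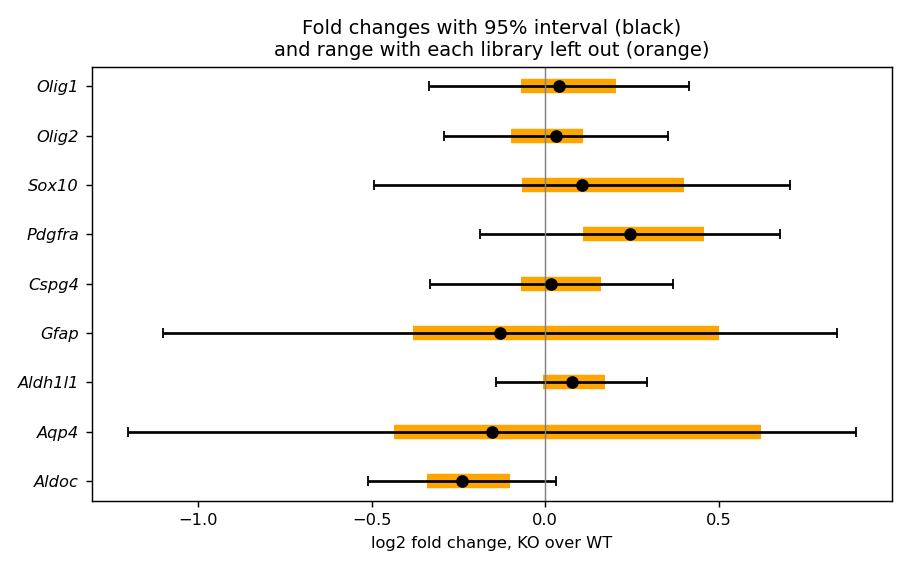
Log2 fold change of KO over WT for the 9 tested members, with the 95% interval of the edgeR fit in black and the range over fits with 1 library left out in orange. Every interval spans 0, and the orange range stays on 1 side of it for Pdgfra and Aldoc only.

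Most members had their highest and their lowest level in the same WT libraries, R4 and R2. WT library R4 had the highest level of the 8 for 7 of the 9 tested members (77.8%), Olig2 and Pdgfra being the exceptions, and WT library R2 the lowest for 7 (77.8%). Over all genes tested, WT library R4 was highest for 21.4% and WT library R2 lowest for 13.2%. Olig2 went the other way among WT libraries, with its highest level in R2. Among KO libraries the highest level was in R1 for 5 members, in R4 for 3 and in R2 for 1. For each gene the log2 deviation of a library from the mean of the 8 was taken (offset 1), and the median over genes was read. It was 0.42 for the 5 OPC members and 0.91 for the 4 astrocyte members in WT library R4, and -0.36 and -0.39 in WT library R2. Beyond the members, the astrocyte and OPC surface lists were also high in WT library R4. Of 27 tested astrocyte genes that are not members, WT library R4 was highest for 19 (70.4%), with a median deviation of 0.54, and of 15 OPC surface and matrix genes for 8 (53.3%), with 0.37. The other pathway and lineage lists were not high there. Their medians included 0.01 for the specification factors, -0.06 for myelin genes and -0.04 for PDGF genes, with -0.10 for the hedgehog pathway and -0.33 for NFI factors. Some marker lists were raised too. The 11 radial glia markers stood at 0.28 there, with WT library R4 highest for 6 (54.5%). The 6 tested interneuron and ventral forebrain markers stood at 0.22, as did the 7 tested microglial markers. The 1 tested choroid plexus and ependymal marker stood at 0.60. The 8 projection neuron markers stood at -0.13, and endothelial, pericyte and meningeal markers at -0.04, -0.17 and -0.86. WT library R4 was also the shallowest library, and the part of depth, litter or sex in its levels was not tested.

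**Figure D3:**
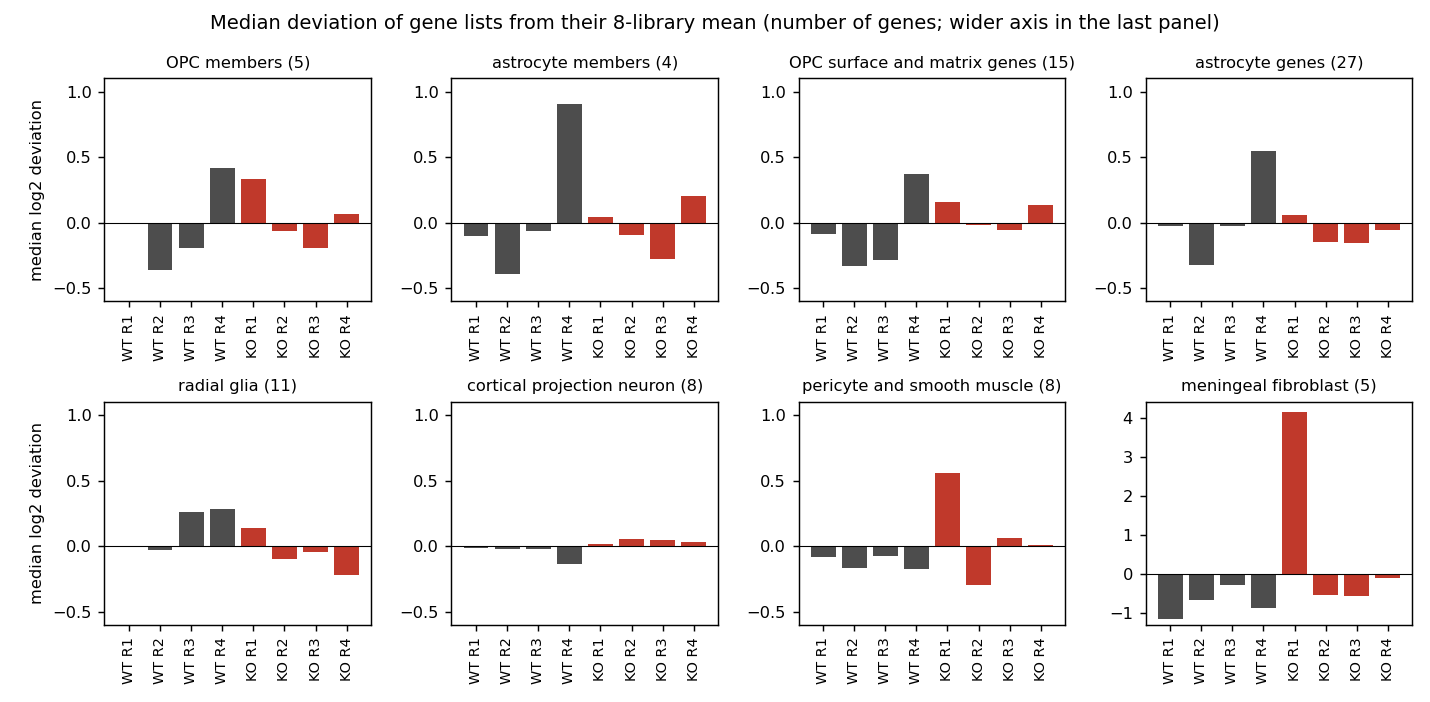
Median log2 deviation of the genes of each list from their mean over the 8 libraries (bars grey for WT, red for KO, number of genes in the panel title, wider axis in the last panel). WT R4 is the highest bar for OPC members (0.42), astrocyte members (0.91), OPC surface and matrix genes (0.37), astrocyte genes (0.54) and radial glia (0.28). KO R1 is the highest for pericyte and smooth muscle and for meningeal fibroblast markers.

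Levels per kilobase of exon set the genes in an order led by the astrocyte enzymes. The means over the 8 libraries, in normalized counts per kilobase, were 784 for Aldoc and 257 for Aldh1l1, then 100.4 for Pdgfra, 93.8 for Olig1, 57.7 for Gfap and 49.9 for Olig2. Sox10 (23.7), Cspg4 (16.9), Aqp4 (9.30) and Nkx2-2 (1.11) followed. Aldoc was above Aldh1l1, and Aldh1l1 above Pdgfra, in 8 of 8 libraries with ranges that did not meet, and the same held for Olig2 over Sox10 and Aqp4 over Nkx2-2. Pdgfra was above Olig1 in 5 of 8 libraries and Gfap above Olig2 in 4 of 8, so these neighbours were not separated beyond their spread. By its mean, Aqp4, the transcript of the endfoot channel, stood below every OPC gene but Nkx2-2.

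**Figure D4:**
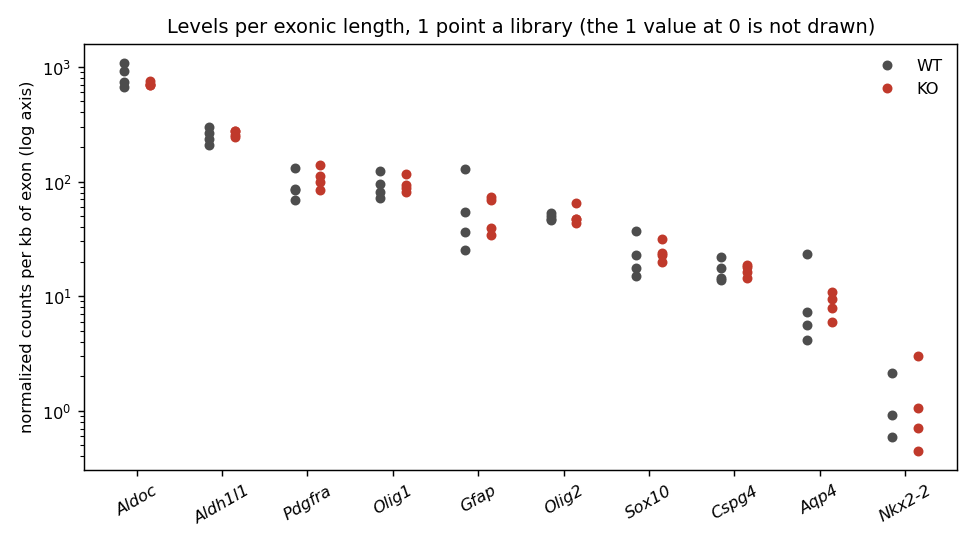
Normalized counts per kilobase of exon on a log axis, 1 point a library, with genes in the order of their mean. The points of Aldoc and Aldh1l1 lie above those of all other members, and among the tested members those of Gfap and Aqp4 spread widest.

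The wider lists of pathway and lineage genes, OPC and astrocyte lists among them, were read for how many genes lay on either side of 0 and how many passed a test. In all, 151 genes stood in 11 lists, 147 had a row and 121 were tested. No gene of these lists passed an adjusted p of 0.05 in edgeR (2 did in DESeq2, Pdgfc and Slc4a4), and 12 (9.92%, 5 higher and 7 lower in KO) passed an unadjusted p of 0.05, beside 7.69% of all genes. Genotypes did not overlap for 3 of the 121, beside 4.49% of all genes tested. Of the 15 tested OPC surface and matrix genes, 12 were higher in KO in sign, with a median log2 fold change of 0.10, yet the single gene past an unadjusted p was lower. It was Ptprz1, a receptor phosphatase of OPCs and radial glia, with 12664 ± 698 normalized counts in KO and 14662 ± 1592 in WT (SD, n = 4) and a log2 fold change of -0.21 (unadjusted p = 0.0194, adjusted p = 0.584). Without WT library R4, 6 genes of that list passed an unadjusted p upwards and 1 downwards, and the median was 0.21, while over all genes 1604 of 12887 passed it in that fit. None passed an adjusted p.

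Of the 12 tested specification factors, 9 were lower in sign (median -0.08, and -0.16 without KO library R1). Without WT library R3 the median was 0.01 and without KO library R4 -0.002, each with 6 higher and 6 lower. Of 6 tested myelin genes out of 15, 3 lay on either side (median 0.01). Leaving out KO library R1 or R4 or WT library R1 or R3 turned that median below 0. So did requiring at least 10 counts in every library. Ermn, a cytoskeletal protein of oligodendrocytes, was at 43.2 ± 7.53 in KO and 27.0 ± 10.5 in WT normalized counts (SD, n = 4), with a log2 fold change of 0.66 (unadjusted p = 0.0369, adjusted p = 0.631).

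Pdgfc, a ligand of the PDGF family that binds the receptor encoded by Pdgfra, was the gene of these lists with the smallest p. Its normalized counts were 135, 85.9, 161 and 142 in WT libraries R1 to R4 and 222, 209.8, 267 and 279 in KO libraries R1 to R4. Every KO library was above every WT library. The log2 fold change was 0.93 (standard error 0.18), with an adjusted p of 0.168 from edgeR and of 0.000806 from DESeq2. Leaving out each library gave between 0.76 and 1.05. Of the 6 PDGF ligands and receptors beside Pdgfra, 5 were higher in sign (median 0.16, and 0.08 without KO library R1), and Pdgfa, the OPC mitogen itself, which falls outside the naming rule and was named after its values were seen, had 297 ± 26.7 in KO and 284 ± 106 in WT normalized counts (SD, n = 4).

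Of the 11 tested genes of the sonic hedgehog pathway, which induces Olig2 in the ventral forebrain, 9 were lower in sign (median -0.14). Gli1, a transcription factor and target of the pathway, had 68.8, 69.2, 122 and 86.1 normalized counts in WT and 44.8, 53.2, 56.3 and 56.0 in KO, in the order R1 to R4. All KO libraries were below all WT libraries, at a log2 fold change of -0.69 (standard error 0.21, unadjusted p = 0.00639, adjusted p = 0.481). Boc, a co-receptor for the ligand, was at 885 ± 43.7 in KO and 688 ± 144 in WT normalized counts (SD, n = 4), with a log2 fold change of 0.35 (unadjusted p = 0.0174, adjusted p = 0.569).

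The wider astrocyte list lay to the lower side in KO, and its direction depended on WT library R4. Of 27 tested genes, 22 were lower in sign, with a median log2 fold change of -0.17 beside -0.01 over all genes. Without WT library R4, 12 were lower and 15 higher, and the median was 0.05. With KO library R1 left out as well, 14 were lower and 13 higher, the median was -0.03, and 4 passed an unadjusted p downwards and 1 upwards. Over all genes 1423 of 12848 passed it in that fit. Slc4a4, a sodium bicarbonate cotransporter of astrocytes, was the gene of the list with the smallest p. It had 407, 376, 591 and 547 normalized counts in WT and 341, 333, 327 and 277 in KO, in the order R1 to R4. The genotypes did not overlap, and the log2 fold change was -0.58 (standard error 0.14), with an adjusted p of 0.359 from edgeR and of 0.0322 from DESeq2. It was -0.51 without WT library R4.

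The glutamate transporters, which clear glutamate around synapses, followed. Slc1a3, also a radial glia marker, had 2180 ± 119.8 normalized counts in KO and 2695 ± 514 in WT (SD, n = 4), a log2 fold change of -0.30 (unadjusted p = 0.0224, adjusted p = 0.611). Slc1a2 had 290.2 ± 50.9 in KO and 401 ± 111 in WT normalized counts, a log2 fold change of -0.45 (unadjusted p = 0.0293, adjusted p = 0.629). Without WT library R4 neither passed an unadjusted p, at -0.19 and -0.26. With KO library R1 left out as well both did, at -0.22 (unadjusted p = 0.0415) and -0.36 (unadjusted p = 0.0170). The last gene of the list past an unadjusted p was Acsbg1, an acyl-CoA synthetase, at a log2 fold change of -0.38 (unadjusted p = 0.0372, edgeR adjusted p = 0.631), named after its values were seen.

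Among the pathways that turn progenitors to glia, all 4 NFI factors were lower in sign (median -0.07, smallest unadjusted p = 0.428). Their median was -0.15 without KO library R1 and -0.16 without WT library R4. In the latter fit 1 gene passed an unadjusted p, beside 1604 of 12887 over all genes. Without both it was -0.24, with 3 of 4 past an unadjusted p, beside 1423 of 12848 over all genes. Without KO library R2 it was 0.004, with 2 higher and 2 lower. Without WT library R1 or R2, 1 was higher and 3 were lower. No gene passed an adjusted p. Also lower in sign were 6 of 9 tested genes of the gliogenic cytokine and STAT pathway (median -0.03, smallest unadjusted p = 0.263). The 13 Notch pathway genes were split 7 higher and 6 lower (median 0.01), and the 9 tested relatives of the members 5 and 4 (median 0.02), with no gene past an unadjusted p in either list. Of 12 tested BMP pathway genes, 7 were higher in sign (median 0.05) and 2 of these passed an unadjusted p. Without KO library R1 the medians of the BMP, Notch and relatives lists changed sign. The Notch median did so as well without KO library R3 or WT library R4, and the STAT median without KO library R4 or WT library R4. Bmpr1b, a BMP receptor, had 193 ± 58.4 normalized counts in KO and 119.9 ± 29.4 in WT (SD, n = 4), with a log2 fold change of 0.70 (unadjusted p = 0.0108, adjusted p = 0.535). Bmp6, a ligand, rested on KO library R1, where it had 149 normalized counts against 18.6 or fewer in the rest, and its log2 fold change of 2.08 (adjusted p = 0.646) was 0.45 without it.

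Markers of the other cells of the cortex were read beside these genes, and none of the 8 lists held a gene past an adjusted p in edgeR (1 in DESeq2). Radial glia markers summed to between 24613 and 28400 normalized counts in KO and between 22323 and 32081 in WT, and 10 of 11 were lower in sign (median log2 fold change -0.11), led in level by Fabp7 and Vim. With WT library R3, WT library R4 or KO library R4 left out, 7 of 11 were lower, at medians of -0.01, -0.12 and -0.03. In every other fit with 1 library left out, 9 or 10 were lower. All 6 tested markers of interneurons and the ventral forebrain, led by Gad1 and Dlx1, were lower in sign (median -0.17), and 5 of 8 projection neuron markers were higher (median 0.07). Meningeal, pericyte and microglial markers were higher in sign throughout (5 of 5, 8 of 8 and 7 of 7 tested, medians 2.93, 0.24 and 0.15), as were 6 of 8 endothelial markers (median 0.18). Without KO library R1 the medians were 0.40 for meningeal, 0.12 for pericyte, 0.02 for microglial and 0.03 for endothelial markers, and 4 of 5, 6 of 8, 4 of 7 and 4 of 8 were higher. Choroid plexus and ependymal markers, led by Foxj1 and Ttr, summed to between 76.2 and 199 normalized counts in every library, and 1 of the 6 was tested (0.21). The part of these cells in the levels of the glial genes was not tested.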

How the data were processed

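Cortical poly-A RNA of 4 KO and 4 WT embryos was measured. The authors used Cutadapt 1.13 and Prinseq to trim bases under a Phred quality of 20 and to drop reads under 25 bp. Mapping to mm9 was done by TopHat2 2.0.13, with SAMtools 0.1.19, and counting by HTSeq-count. The deposited values are whole-number counts per gene, not normalized. The version, strand setting and annotation of the counting are not given in the sources used here, and reads shared with near-identical copies may be lost. No column of the table was left unused (0). Their tool for differential expression was DESeq2.

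Libraries were grouped by genotype. KO was compared with WT by the quasi-likelihood test of edgeR 4.0.16 (R 4.3.3) after TMM scaling and filterByExpr, with Benjamini-Hochberg adjustment over 12699 genes. The fit was also tested on simulated counts. Nkx2-2, the only member below the filter, was compared by a 2-sided exact permutation test (scipy 1.17.1). Other genes below the filter were not tested. Intervals are 95% intervals of the fit. P-values measure the spread between embryos, some of which share a litter. Libraries of a genotype were not duplicates, since no pair came under a chi-square of 5.73 per degree of freedom. Positions and exon lengths were taken from GENCODE vM1 on NCBIM37, the assembly behind mm9.

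The members and lists were chosen with earlier results of these data known. Named are all members, Nuak1, from each of 11 lists of pathway and lineage genes up to 3 genes past an unadjusted p of 0.05, lowest p first, and the 2 most abundant genes of marker lists. Other genes were named after their values were seen. The 19 lists are the ones whose counts are given above. Alternatives were DESeq2 1.42.0, its size factors in edgeR, no filter, at least 10 counts in every library, and each library left out. Leaving out KO library R1 and WT library R4 together, and running every alternative on named list genes, were chosen after seeing the data. Cultured neurons of the study were not analysed here, and some genes that meet the naming rule are not reported here.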

Additional observations from a re-analysis of the deposited data

Results flagged for a closer look

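Within each genotype, 58 sets of 4 values (members, named genes and marker sums) were examined for a library far from the other 3, by Dixon's test at its 95% level. Chance alone gives about 1 in 20, or 2.9 of 58, and 3 were found. Aqp4 was far above the others in WT library R4, at 123 normalized counts. Bmp6, a BMP ligand, was far above the others in KO library R1, at 149 normalized counts. The sum of the meningeal fibroblast markers was far above the others in KO library R1, at 10200 normalized counts. The cause was not tested for any of them.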

How the results depend on the processing

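No member passed an adjusted p of 0.05 in any of the 13 alternatives, and 99 of the 117 log2 fold changes of members under an alternative kept their sign. Pdgfra and Aldoc kept theirs in every alternative. DESeq2, its size factors, no filter and at least 10 counts in every library turned the sign of no member. With 1 library left out, the log2 fold change of Olig1 lay between -0.071 and 0.203, of Olig2 between -0.0981 and 0.108, of Sox10 between -0.0681 and 0.399, of Cspg4 between -0.0689 and 0.159, of Gfap between -0.38 and 0.5, of Aldh1l1 between -0.00575 and 0.173, and of Aqp4 between -0.437 and 0.622. The adjusted p of members over these alternatives was never below 0.284. With KO library R1 and WT library R4 both left out, which was chosen after seeing the data, Olig2 was at -0.117, Gfap at 0.375 and Aqp4 at 0.655, and 1 member, Pdgfra, passed the thresholds of the study. Leaving out 1 library gave between 0 and 2 such members. Those were Aldoc without WT library R1 or R2, and Pdgfra and Aqp4 without WT library R4. An unadjusted p alone was passed by 758 of 12650 genes without WT library R1 and 1029 of 12676 without WT library R2. The count was 1604 of 12887 without WT library R4 and 1423 of 12848 with KO library R1 left out as well. With all libraries it was 976 of 12699. DESeq2 raised Pdgfc and Slc4a4 past an adjusted p of 0.05, and over all genes it called 70 where edgeR called 9. Both tools were given the same genes and libraries. DESeq2 also applied its own filters, which left Ermn without an adjusted p and Bmp6 without any p-value. The cause of the difference was not tested. The myelin median was 0.127 without WT library R2, and the meningeal median was 0.4 without KO library R1 and 0.374 without both. Counts were lowest for Nkx2-2, with at most 14 in a library. No paired analysis was possible because neither litter nor embryo is named in a column, and the running numbers pair no libraries.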
